A study of Mus musculus with 11 samples.

Results

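Astrocytes of the cortex (CX, 2 libraries) were compared with astrocytes of the brainstem (BS, 3 libraries), over all genes of the deposited table. These 5 libraries were the cortex and brainstem samples of the 11 analysed, and the olfactory bulb and hippocampus samples were left out. Every library came from 16-week-old Aldh1l1-eGFP mice on a C57BL/6 background, in which a bacterial artificial chromosome drives green fluorescent protein from the regulatory sequence of the astrocyte gene Aldh1l1. The region was dissected and dissociated, and cells positive for the reporter were sorted by fluorescence. Total RNA of the sorted cells was depleted of ribosomal RNA and sequenced in bulk. Any cell that carried the reporter, or was sorted with it, therefore added to the values. Fewer cells of a type and less RNA per cell cannot be told apart. CX and BS thus shared the transgene, the strain and the age, and differed in the region dissected. The study used mice of both sexes, and the labels do not give the sex behind any library, so sex may differ between CX and BS as well.

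Astrocytes are the main glial cells of grey and white matter. They take up glutamate, γ-aminobutyric acid (GABA) and glycine around synapses, buffer potassium, supply glutamine and sterols to neurons, and wrap blood vessels with their endfeet. They arise from radial glia of the local ventricular zone, which is divided early by transcription factors into a telencephalon, marked by Lhx2 and Emx2 among others, and a hindbrain, marked by Hox genes along its length and by homeodomain and paired-box factors from its ventral to its dorsal side. The comparison asked which genes distinguish adult astrocytes of both origins.

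Values are read counts divided by one size factor per library, so 1 read was worth 1.05 to 2.10 units, and the 5 libraries held 2830746 to 5596128 reads over 24421 entries. Fold changes are BS minus CX on the scale log2(value + 1) and carry the standard error of the limma fit. A gene was called differentially expressed when its unadjusted p was under 0.01, its fold over 1.5 and its value over 5 in at least 2 libraries of a region, and the Benjamini-Hochberg adjusted p over all tested genes from the same limma fit is printed beside it. Nothing in the labels tells whether libraries of a region came from separate animals, and p-values then measure only the spread between these libraries. Reads of the Y-linked genes Ddx3y, Eif2s3y, Kdm5d and Uty were present in BS_3 alone. The ribosomal RNA entry Rn45s still took 18.0% to 25.6% of reads after the depletion. Pearson correlations of the log values were 0.936 between both CX libraries, 0.878 to 0.915 between BS libraries and 0.789 to 0.852 across regions, and BS_2 was the BS library nearest to CX.

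Astrocyte markers and markers of other cells did not run in parallel among the BS libraries. The summed value of 18 astrocyte markers was 838812 and 744970 in CX, against 179692 in BS_1, 467713 in BS_2 and 283618 in BS_3. Slc1a2, the glutamate transporter GLT-1, contributed 541890 and 472460 of the CX sums and 61764, 208930 and 113320 of the BS sums. The summed value of 19 choroid plexus markers ran the other way among the BS libraries, at 375728 in BS_1, 78912 in BS_2 and 184679 in BS_3, against 9033 and 3848 in CX. Among all tested genes 21.8% were ordered BS_2 over BS_3 over BS_1, the order of the astrocyte sum, and 20.8% were ordered BS_1 over BS_3 over BS_2, the order of the choroid plexus sum. Of the genes called higher in BS, 46.6% had the choroid plexus order and 13.1% the astrocyte order. Of those called higher in CX, 43.0% had the astrocyte order and 7.61% the choroid plexus order. BS values are given below in the order BS_1, BS_2 and BS_3. The part of these sums in any result was not tested.

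Of 12390 genes tested, 1404 were called (11.3%), 786 higher in BS (6.34%) and 618 higher in CX (4.99%). The adjusted p was also under 0.05 for 1009 of the tested genes that met the other criteria (8.14%), 573 higher in BS (4.62%) and 436 higher in CX (3.52%). Values of the 2 regions did not overlap for all 1404 called genes, and did not overlap for 39.8% of all tested genes. Differences over 4-fold were found for 452 genes higher in BS and 204 higher in CX, and over 16-fold for 115 and 47. No read was found in CX for 37 of the BS-higher genes, and none in BS for 15 of the CX-higher genes. Without BS_2 the same rule called 2185 genes, 1091 higher in BS and 1094 higher in CX, and 1301 of the 1404 were among them with the same direction. Without CX_1 or CX_2 it called 607 and 768 genes (415 and 550 higher in BS, 192 and 218 higher in CX), of which 29 and 50 had an adjusted p under 0.05, and without BS_3 974 genes, of which 501 were higher in BS and 462 had an adjusted p under 0.05. Without the mean-variance trend 1064 were called, 314 of them with an adjusted p under 0.05. For the gene lists below, the 5 numbers in parentheses after a count of called members are the counts on leaving out BS_1, BS_2, BS_3, CX_1 and CX_2 in turn. Each list count is to be read beside the 6.34% and 4.99% of all tested genes. In either direction 10.5% of endfoot and junction genes, 11.1% of endothelial and mural markers and 14.3% of glycolysis genes were called. These shares are near the 11.3% of all tested genes.

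**Figure D1:**
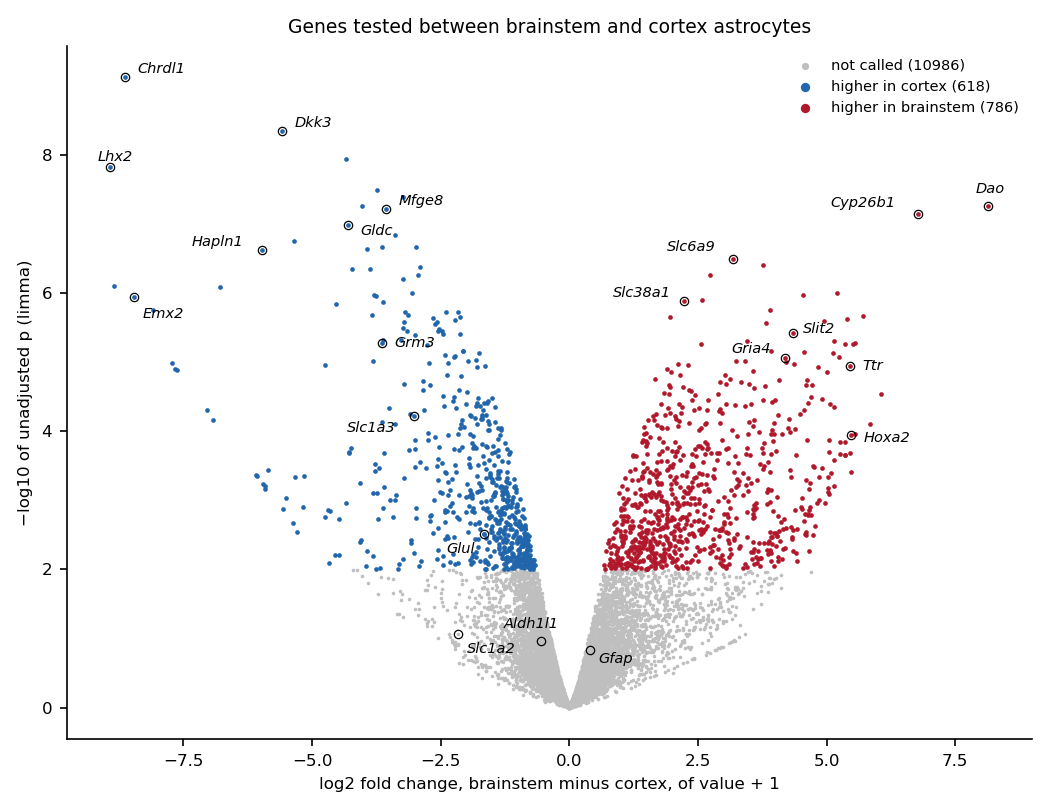
Each point is 1 of 12390 tested genes, with its log2 fold change (BS minus CX) on the horizontal axis and the -log10 of its unadjusted limma p on the vertical axis; 618 blue points were called higher in cortex, 786 red points higher in brainstem, and circles mark named genes. Of the circled genes, Lhx2, Emx2 and Chrdl1 lie farthest to the cortex side and Dao and Cyp26b1 farthest to the brainstem side, while Aldh1l1 and Gfap lie near 0.

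Transcription factors of the developing telencephalon were among the genes with the largest fitted fold changes towards the cortex, and Lhx2 had the largest of all. Lhx2, a LIM-homeodomain factor of the cortical primordium (chr2:38339281-38369733, plus strand, GRCm38), had values of 2222 and 2064 in CX and of 2.10, 8.01 and 2.10 in BS (log2 fold change -8.92 ± 0.55, adjusted p = 4.67e-05). Emx2, a homeobox gene of the dorsal telencephalon (chr19:59458372-59465357, plus strand), had values of 492 and 524 in CX and 0, 2.003 and 0 in BS, where a single read came from BS_2 (adjusted p = 0.000426). The ratio of its pooled scaled reads, CX over BS, was 976, with a 95% exact counting interval of 175 to 38599. Its antisense gene Emx2os moved with it, at 244 and 166 in CX and 0, 0 and 0 in BS (adjusted p = 0.00151), and since strand-aware counting is not stated, reads of both cannot be told apart. The CX and BS values of each of these genes were far apart. Lack of overlap was itself required of genes named for the largest fold changes, so it is no separate result.

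Of 28 forebrain patterning factors, 16 were tested, and 11 (12, 12, 11, 8 and 7) were called higher in CX and 2 (2, 2, 2, 1 and 1) higher in BS, with a median log2 fold change of -4.04 (-3.32 with genes that had no read in a region set to their bound) against 0.02 over all tested genes. Fezf2, a zinc finger factor of forebrain progenitors and deep-layer neurons, had values of 202 and 189 in CX and no read in BS, at least 37.9-fold higher in CX against a floor of 3 reads per BS library (adjusted p = 0.00155). Dmrta2, a doublesex-related factor of the telencephalon, also had no read in BS, with 28.9 and 56.7 in CX. Of the 28 listed, 10 had no read in BS and 5 had none in CX. Members could pass the filter on low counts through 1 region alone, as Fezf2 and Dmrta2 did through CX. Otx1 was lower in BS by a log2 fold change of -3.60 ± 0.64, from 246 and 219 in CX to 7.36, 42.1 and 18.9 in BS, with the highest BS value in BS_2. Pax6, which sets dorsal identity in the forebrain and is kept in many astrocytes, was lower in BS without being absent there (209 and 233 against 62.0, 112 and 63.1, log2 fold change -1.52 ± 0.36). Tbr1, a factor of glutamatergic cortical neurons, had values of 94.2 and 103 in CX and 2.10, 6.01 and 0 in BS (log2 fold change -5.15 ± 1.01, adjusted p = 0.0126). Nr2f1, Tcf7l2 and Hopx did not pass, with log2 fold changes of -0.55, -0.81 and -0.76.

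Both forebrain list members that were higher in BS have other known sites of expression. Otx2, which the adult choroid plexus also expresses, had values of 2445, 609 and 1223 in BS in the order of the choroid plexus sum, against 107 and 96.6 in CX (log2 fold change 3.58 ± 0.46, adjusted p = 0.00159). Nr2f2, an orphan nuclear receptor, had values of 444, 373 and 297 in BS and 172 and 176 in CX (log2 fold change 1.07 ± 0.26, adjusted p = 0.0319).

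**Figure D2:**
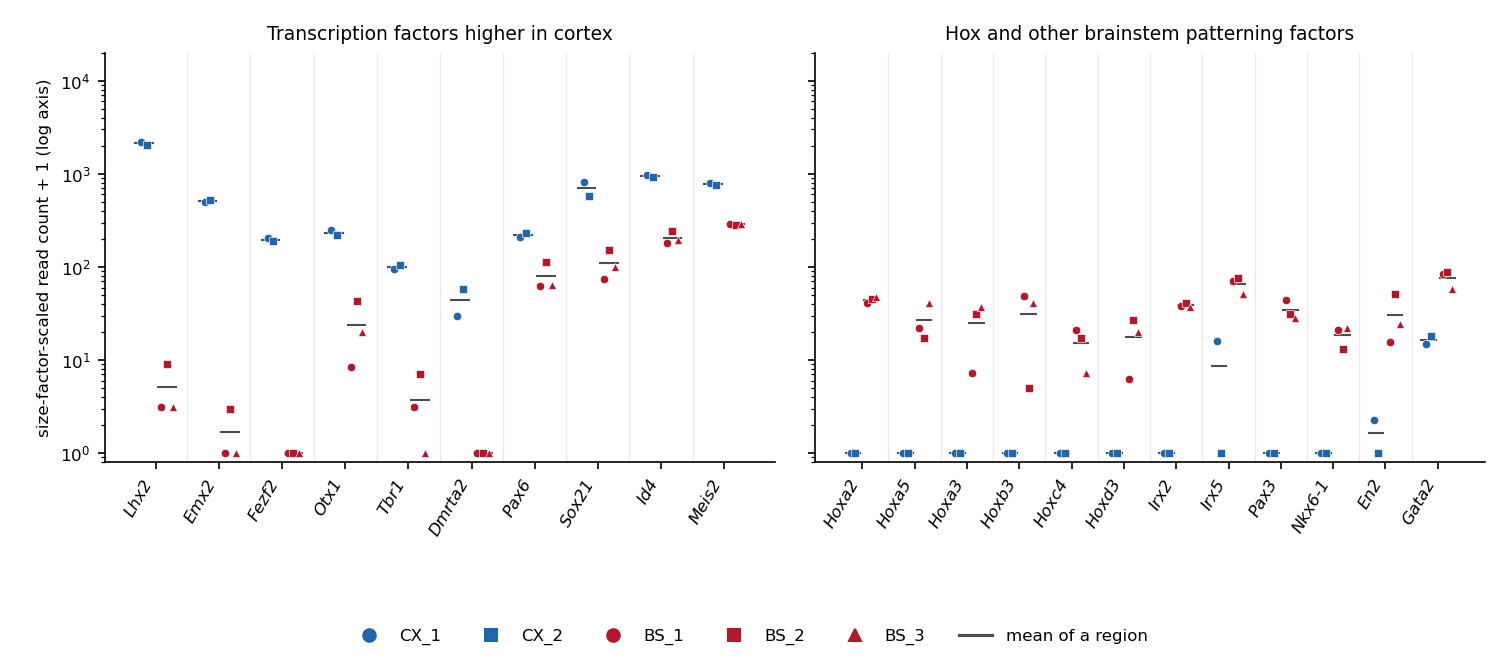
Points are the size-factor-scaled read counts of single libraries plus 1 on a log axis, blue for CX and red for BS, with grey lines at the mean of each region; a point at 1 is a library with no read. Fezf2 and Dmrta2 sit at 1 in all BS libraries, and the 6 tested Hox genes, Irx2, Pax3 and Nkx6-1 sit at 1 in both CX libraries.

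Hox genes, which give positional identity to the hindbrain and spinal cord, had reads in BS alone. All 23 Hox genes listed had no read in either CX library, and their summed value in BS was 152 to 236. Of the 23, 7 had no read in any BS library either. Only 6 passed the filter on low counts, which they could do through their BS values alone, and 4 of these (4, 3, 1, 2 and 2) were called higher in BS, or 2 with a pseudocount of 5. Hoxa2 (chr6:52162417-52164831, minus strand), whose expression reaches farthest forward in the hindbrain, was the most even, with 39.95, 44.1 and 46.3 in BS, at least 10.4-fold higher than in CX (adjusted p = 0.0055). Hoxa5 had values of 21.0, 16.0 and 39.99 (adjusted p = 0.0283). Hoxa3 (6.31, 30.1 and 35.8, adjusted p = 0.061) and Hoxb3 (47.3, 4.01 and 39.99, adjusted p = 0.0742) were called by the unadjusted p but not the adjusted one, and each had 1 BS library far under the others. Hoxc4 (19.98, 16.0 and 6.31, adjusted p = 0.11) and Hoxd3 (5.26, 26.0 and 18.9, adjusted p = 0.102) were not called. By the same thresholds edgeR and DESeq2 called all 6, Hoxc4 with adjusted p of 0.0613 and 0.0276.

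Factors that divide the midbrain, hindbrain and ventral neural tube were called higher in BS in 12 (8, 11, 7, 8 and 8) of 24 tested of 47 listed, and higher in CX in 2 (2, 3, 1, 1 and 1), with a median log2 fold change of 1.95. Of the 47 listed, 23 had no read in CX and 7 had none in BS. Members could pass the filter on low counts through 1 region alone, so the called share and the median depend on that filter. Irx2, an Iroquois homeobox factor (chr13:72628820-72634198, plus strand), had 36.8, 40.1 and 35.8 in BS and no read in CX, at least 8.97-fold higher (adjusted p = 0.00787). Pax3, a paired-box factor of dorsal progenitors (chr1:78101267-78197134, minus strand), had 43.1, 30.1 and 27.4 in BS and no read in CX (adjusted p = 0.0118). Nkx6-1, a homeodomain factor of ventral progenitors (chr5:101658139-101664996, minus strand), had 19.98, 12.02 and 21.0 in BS and no read in CX, and its adjusted p of 0.0568 missed the threshold. None of these had the BS order of either marker sum.

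En2, an Engrailed factor of the midbrain and hindbrain boundary, had 14.7, 50.1 and 23.2 in BS and a single read in CX, a pooled ratio of 37.6 with a 95% exact counting interval of 6.45 to 1511 (adjusted p = 0.038). Irx5 (log2 fold change 4.01 ± 1.03, adjusted p = 0.0412), Lmx1a (log2 fold change 3.59 ± 0.56, adjusted p = 0.00411) and Gata2 (log2 fold change 2.20 ± 0.49, adjusted p = 0.0223) were higher in BS as well. Zic1, a zinc finger factor of the dorsal neural tube and cerebellum that meningeal cells also express, was highest in BS_1 and lowest in BS_2, at 443, 176 and 286. Nkx2-2, which the study discusses as a regional factor, did not differ beyond the spread, at 22.6 and 23.0 in CX and 25.2, 60.1 and 46.3 in BS (adjusted p = 0.45). Meis2, a partner of Hox proteins, and Dbx2 were the 2 members higher in CX. Meis2 was nearly constant within each region, at 789 and 757 in CX and 285, 280.5 and 288 in BS (log2 fold change -1.44 ± 0.21, adjusted p = 0.00326).

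The 250 bases before the start of 8 of these and later genes are shown because their density of CG dinucleotides, which CpG island promoters retain, differs widely among genes of both directions. They are RefSeq sequences on GRCm38.p6, written 5′ to 3′ on the strand of the gene, with each CG in capitals, and 0 bases of any window shown lie in an annotated exon. RefSeq gives a pair of starts for Lhx2, and the first was used.
Lhx2 (chr2:38339031-38339280, plus strand): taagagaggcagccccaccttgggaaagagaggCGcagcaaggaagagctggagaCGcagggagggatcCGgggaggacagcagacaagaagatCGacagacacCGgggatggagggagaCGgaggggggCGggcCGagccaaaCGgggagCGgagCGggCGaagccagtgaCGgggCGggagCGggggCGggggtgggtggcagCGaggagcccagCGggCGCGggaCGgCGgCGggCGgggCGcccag
Irx2 (chr13:72628570-72628819, plus strand): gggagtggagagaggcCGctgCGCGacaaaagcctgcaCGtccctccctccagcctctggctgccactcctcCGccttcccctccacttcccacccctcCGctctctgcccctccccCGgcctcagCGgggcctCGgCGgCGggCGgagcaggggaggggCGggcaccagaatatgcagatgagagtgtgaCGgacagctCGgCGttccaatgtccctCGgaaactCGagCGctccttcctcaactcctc
Hoxa5 (chr6:52204588-52204837, minus strand): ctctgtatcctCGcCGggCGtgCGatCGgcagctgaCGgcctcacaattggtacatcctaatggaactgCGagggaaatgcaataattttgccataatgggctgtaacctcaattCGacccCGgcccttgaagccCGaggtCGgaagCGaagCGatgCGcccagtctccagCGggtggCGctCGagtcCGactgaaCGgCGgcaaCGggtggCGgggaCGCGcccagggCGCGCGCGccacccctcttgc
Gria4 (chr9:4796235-4796484, minus strand): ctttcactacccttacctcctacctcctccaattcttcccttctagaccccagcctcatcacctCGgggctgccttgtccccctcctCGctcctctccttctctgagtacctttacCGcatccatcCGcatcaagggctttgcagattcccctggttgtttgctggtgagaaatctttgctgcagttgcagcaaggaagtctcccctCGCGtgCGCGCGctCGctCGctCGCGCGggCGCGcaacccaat
Hoxa2 (chr6:52164832-52165081, minus strand): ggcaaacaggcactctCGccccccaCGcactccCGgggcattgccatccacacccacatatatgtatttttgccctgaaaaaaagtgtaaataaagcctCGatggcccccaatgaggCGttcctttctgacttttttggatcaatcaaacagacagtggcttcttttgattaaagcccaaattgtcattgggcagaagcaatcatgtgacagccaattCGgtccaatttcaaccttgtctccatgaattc
Gldc (chr19:30175442-30175691, minus strand): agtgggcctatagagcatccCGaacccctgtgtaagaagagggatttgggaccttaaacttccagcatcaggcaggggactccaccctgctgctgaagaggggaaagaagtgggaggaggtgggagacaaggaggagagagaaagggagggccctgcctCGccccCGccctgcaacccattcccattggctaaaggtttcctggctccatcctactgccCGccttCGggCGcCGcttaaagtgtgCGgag
Slc1a3 (chr15:8710808-8711057, minus strand): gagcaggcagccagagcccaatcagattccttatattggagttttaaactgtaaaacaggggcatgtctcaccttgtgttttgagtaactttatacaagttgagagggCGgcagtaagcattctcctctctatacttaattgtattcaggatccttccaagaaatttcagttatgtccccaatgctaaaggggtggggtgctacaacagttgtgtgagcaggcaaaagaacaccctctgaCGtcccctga
Dio2 (chr12:90739039-90739288, minus strand): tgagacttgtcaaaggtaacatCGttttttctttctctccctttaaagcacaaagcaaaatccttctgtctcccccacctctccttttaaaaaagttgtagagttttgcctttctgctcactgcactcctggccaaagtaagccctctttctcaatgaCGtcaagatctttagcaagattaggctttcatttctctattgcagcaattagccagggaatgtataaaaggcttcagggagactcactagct

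Lhx2, which was higher in CX, and Irx2 and Hoxa5, which were higher in BS, held 25, 19 and 28 CG dinucleotides, all above a median of 16 over the 9444 tested genes with a promoter in the table. Gria4, higher in BS, held 16. Hoxa2, also higher in BS, held 6, and Gldc, Slc1a3 and Dio2, which were higher in CX, held 8, 2 and 2. Over the called genes with a promoter the median was 12 CG for the 598 higher in BS and 15 for the 445 higher in CX. The letters of 3 motifs were searched on both strands of every promoter. TAATTA, the core bound by many homeodomain proteins, was in 2.24% of all, 3.01% of BS-higher and 2.25% of CX-higher promoters. TTGGCA, a half-site of nuclear factor I, was in 10.1%, 10.2% and 10.1%, and AGGTCA, a half-site of nuclear receptors, in 10.2%, 10.5% and 8.54%. None of the 8 windows printed held any of these letters.

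General glial transcription factors were either lower in BS or not called. Of 39 tested of 40 listed, 12 (12, 19, 9, 2 and 4) were called higher in CX and 0 higher in BS by limma, edgeR and DESeq2 alike, and 0 had a higher value in BS at p under 0.05 (median log2 fold change -0.53). Sox21, a SoxB2 repressor, had 808 and 584 in CX and 72.5, 152 and 98.9 in BS (log2 fold change -2.73 ± 0.34, adjusted p = 0.00136). Id4, an inhibitor of basic helix-loop-helix factors, had 980 and 914 and 178, 240.4 and 196 (log2 fold change -2.22 ± 0.23, adjusted p = 0.000601), and the regions were well apart for both genes. Rorb, Pou3f2, Pou3f3 and Sox2 were lower in BS by log2 fold changes of -1.94, -1.42, -1.99 and -1.25. Pgr, the progesterone receptor, had 80.4 and 98.1 in CX and 14.7, 16.0 and 21.0 in BS (log2 fold change -2.31 ± 0.52, adjusted p = 0.0232). The nuclear factor I genes Nfia, Nfib and Nfix, which drive the onset of gliogenesis, did not pass, with log2 fold changes of -0.61 ± 0.30, -0.56 ± 0.25 and -0.24 ± 0.24. Maz, a zinc finger factor, did not pass either (-0.45 ± 0.34).

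Defining astrocyte markers were high in all 5 libraries, and 4 of 18 (4, 11, 2, 1 and 1) were called higher in CX, with 0 called higher in BS by limma, edgeR or DESeq2 and 0 at an unadjusted limma p under 0.05. Aldh1l1, whose regulatory sequence drives the reporter, had 1317 and 1043 in CX and 623, 1256 and 657 in BS (log2 fold change -0.55 ± 0.31, adjusted p = 0.346), with the BS_2 value inside the CX range. Gfap, the intermediate filament of fibrous astrocytes, had 889 and 1309 in CX and 1159.6, 1779 and 1427 in BS (log2 fold change 0.41 ± 0.26, adjusted p = 0.409), so the regions overlapped. The water channel Aqp4 and the potassium channel Kcnj10 had log2 fold changes of 0.28 ± 0.39 and 0.58 ± 0.47 and were not called, and for both the highest value of all was in BS_2. Clu, a secreted chaperone, was lower in BS (29720 and 28069 against 5881, 10708 and 6706, log2 fold change -1.94 ± 0.36, adjusted p = 0.00979). Sox9 was called by the unadjusted p alone (log2 fold change -0.82 ± 0.23, adjusted p = 0.0541).

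Glutamate uptake and the enzymes behind it differed gene by gene. The largest change was in Slc1a3, the glutamate-aspartate transporter GLAST (chr15:8634124-8710764, minus strand), with 33551 and 31576 in CX and 1953, 6315 and 5142 in BS (log2 fold change -3.03 ± 0.46, adjusted p = 0.00373). As for every called gene, the regions did not overlap. The BS values had the astrocyte order, and Slc1a3 is a member of that sum. Slc1a2 had 541890 and 472460 in CX and 61764, 208930 and 113320 in BS, also without overlap, but its log2 fold change of -2.16 ± 1.14 was not called (adjusted p = 0.307). It was called by DESeq2 (adjusted p = 2.5e-05) and without BS_2 in the limma fit (adjusted p = 0.0112). Glul, glutamine synthetase, was lower in BS (45360 and 44921 against 9829.7, 18703 and 16055, log2 fold change -1.65 ± 0.43, adjusted p = 0.042). Slc7a11, the cystine-glutamate exchanger, was lower too (log2 fold change -1.69 ± 0.30, adjusted p = 0.00804).

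In the same list of 16 genes, 5 (4, 5, 2, 1 and 1) were called higher in BS and 3 (3, 7, 2, 1 and 2) higher in CX, and without the trend 1 was higher in BS. Slc38a1, a glutamine transporter best known in neurons, was the most even, at 173 and 190.1 in CX and 834, 777 and 970.3 in BS (log2 fold change 2.23 ± 0.22, adjusted p = 0.000459). The aminotransferases Got1 and Got2 and the transporter Slc38a2 were called by the unadjusted p alone, with log2 fold changes of 1.21, 1.26 and 1.43, and each was highest in BS_1.

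Genes of glycine and D-serine handling differed in both directions. Dao, D-amino acid oxidase, a peroxisomal enzyme that breaks down D-serine and is known from hindbrain astrocytes (chr5:114003703-114025682, plus strand), had no read in CX and 222, 242 and 413 in BS, at least 69.8-fold higher (adjusted p = 8.45e-05). It had the largest fitted fold change towards BS. Slc6a9, the glial glycine transporter GlyT1 (chr4:117834506-117875198, plus strand), had 158 and 189 in CX and 1213, 2181.7 and 1484 in BS (log2 fold change 3.18 ± 0.27, adjusted p = 0.00022), with the BS values in the astrocyte order. Gldc, the glycine decarboxylase of the mitochondrial cleavage system (chr19:30098447-30175429, minus strand), ran the opposite way, at 961 and 826 in CX and 36.8, 62.1 and 37.9 in BS (log2 fold change -4.30 ± 0.33, adjusted p = 0.000116). The other parts of that system, Amt, Gcsh and Dld, were not called (log2 fold changes 0.14, -0.93 and 0.01).

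All 3 enzymes of serine synthesis were lower in BS. Phgdh, the first enzyme of the pathway, had 1064 and 1132 in CX and 182, 365 and 389 in BS (log2 fold change -1.89 ± 0.32, adjusted p = 0.00655). Psat1 and Psph, which follow it, had log2 fold changes of -1.70 ± 0.26 and -1.49 ± 0.32, with adjusted p of 0.00373 and 0.019. Srr, which makes D-serine, was not called (-0.73 ± 0.27). Slc6a5, the neuronal glycine transporter GlyT2, had no read in CX and 17.9, 18.0 and 14.7 in BS (adjusted p = 0.0575). The GABA transporter Slc6a11 (GAT-3) was not called, at 0.81 ± 0.42. It reached 7477, 20819 and 10848 in BS against 7206 and 6412 in CX, so every BS library was above CX, and its highest value was in BS_2. In all, 3 of 25 tested genes of GABA and glycine turnover (5, 2, 2, 3 and 3) were higher in BS and 4 (5, 9, 4, 3 and 3) higher in CX.

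**Figure D3:**
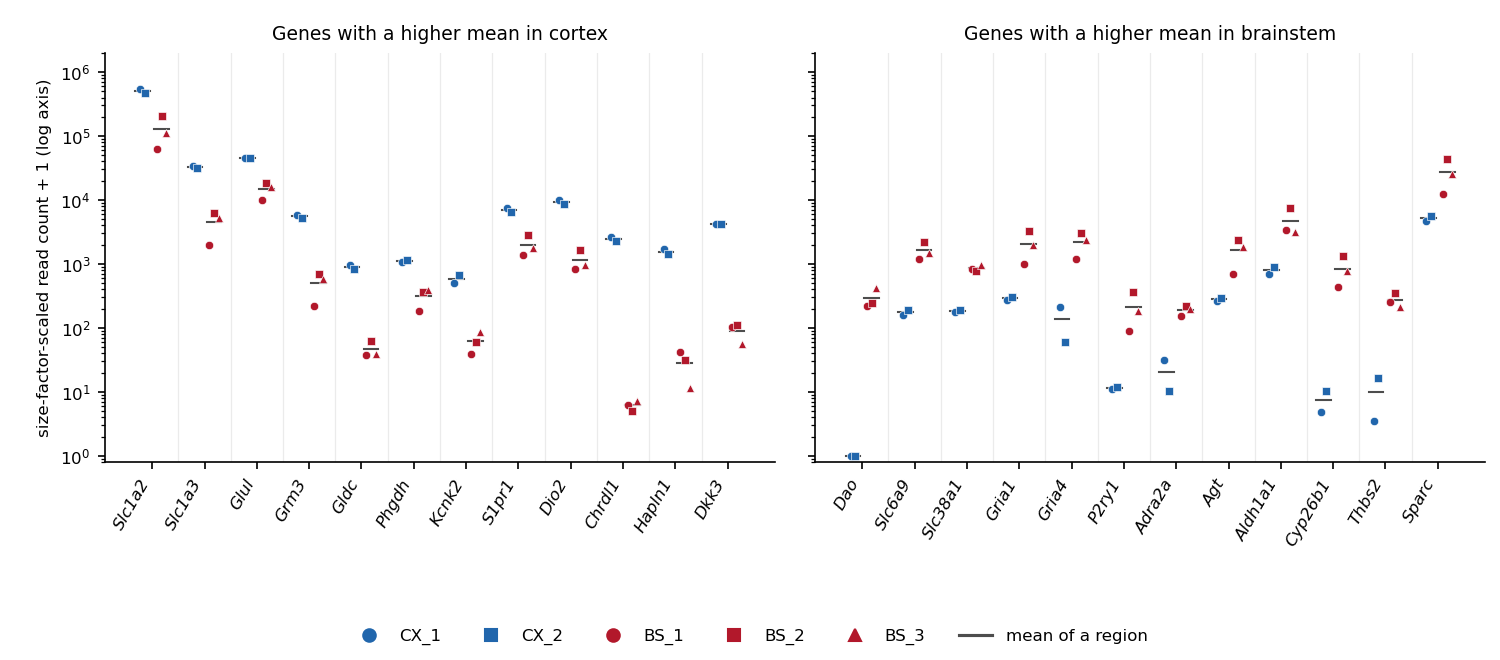
Points are the size-factor-scaled read counts of single libraries plus 1 on a log axis, blue for CX and red for BS, with grey lines at the mean of each region. Slc1a2 was the 1 gene of the 24 shown that was not called, and Dao had no read in either CX library.

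Receptors for glutamate were called in both directions, 3 of 22 tested (3, 3, 2, 2 and 3) higher in BS and 4 (4, 4, 3, 3 and 2) higher in CX, with a median log2 fold change of -0.14. Gria1, an AMPA receptor subunit, had 274 and 302 in CX and 1005, 3259.5 and 1945 in BS (log2 fold change 2.68 ± 0.40, adjusted p = 0.00337). Gria4, another AMPA subunit (chr9:4417896-4796234, minus strand), had 211 and 58.3 in CX and 1202, 3093 and 2326 in BS (log2 fold change 4.20 ± 0.51, adjusted p = 0.00125). Both had the astrocyte order among the BS libraries. Gria2, the subunit that makes these receptors impermeable to calcium, was higher in CX (877 and 1032 against 329, 539 and 396, log2 fold change -1.20 ± 0.25, adjusted p = 0.0177). Grm3, the main group II metabotropic receptor of adult astrocytes (chr5:9485541-9725170, minus strand), had 5847 and 5288 in CX and 216, 693 and 587 in BS (log2 fold change -3.64 ± 0.42, adjusted p = 0.000919). Grin2c, an NMDA receptor subunit, was lower in BS (log2 fold change -1.80 ± 0.23, adjusted p = 0.00143). Grm5, a group I receptor, was not called (1.17 ± 0.40), although all 3 BS values (219, 639 and 293) were above CX (139 and 167).

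Among 38 tested receptors for GABA, glycine and other transmitters, 6 (7, 7, 5, 5 and 6) were higher in BS and 4 (4, 14, 5, 1 and 1) higher in CX. P2ry1, a purinergic receptor coupled to calcium release, had 10.1 and 10.7 in CX and 88.3, 367 and 183 in BS (adjusted p = 0.00295). Adra2a, an inhibitory adrenergic receptor, had 30.2 and 9.20 and 152, 222 and 199.9 (log2 fold change 3.42 ± 0.50, adjusted p = 0.0032). Glra1, the adult glycine receptor subunit of brainstem and spinal neurons, had no read in CX and 33.6, 26.0 and 35.8 in BS (adjusted p = 0.0128). Htr2c, a serotonin receptor that choroid plexus epithelium expresses strongly, had 1674, 365 and 711 in BS in the choroid plexus order (log2 fold change 3.81 ± 0.51, adjusted p = 0.00213). S1pr1, the sphingosine 1-phosphate receptor, was higher in CX (7429 and 6564 against 1379, 2849 and 1772, log2 fold change -1.87 ± 0.31, adjusted p = 0.0055), and so was the cannabinoid receptor Cnr1 (log2 fold change -3.61 ± 0.74, adjusted p = 0.0156).

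Potassium channels and pumps were called in both directions, 5 of 31 (6, 5, 5, 1 and 4) higher in BS and 3 (3, 7, 1, 1 and 1) higher in CX. Kcnk2, the 2-pore channel TREK-1, had 499 and 659 in CX and 37.8, 60.1 and 86.3 in BS (log2 fold change -3.28 ± 0.37, adjusted p = 0.000901). Kcnn3, a calcium-activated channel, was lower in BS (log2 fold change -1.51 ± 0.39, adjusted p = 0.0405). Kcnd2, an A-type channel, was higher in BS (199.8 and 222 against 485, 1128 and 701, log2 fold change 1.78 ± 0.33, adjusted p = 0.00917), with the astrocyte order. Slc12a2, a chloride cotransporter that choroid plexus epithelium uses, had the choroid plexus order, at 1956, 855 and 1349 in BS. The glial pump subunit Atp1b2 was not called (0.30 ± 0.47). Of 19 tested endfoot and junction genes, 1 was called in each direction, which on leaving out libraries stayed 1 towards BS and varied towards CX (1, 5, 0, 0 and 0). Aqp1, a water channel of choroid plexus, had 399.5, 108 and 198 in BS and 2.51 and 6.13 in CX, and Dtna, dystrobrevin α, was higher in CX (log2 fold change -1.27 ± 0.33, adjusted p = 0.0408).

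Secreted and matrix proteins that act on synapses gave 15 genes (14, 22, 14, 10 and 10) higher in CX and 4 (4, 4, 2, 1 and 2) higher in BS of 40 tested, with a median log2 fold change of -0.71. Chrdl1, an astrocyte-secreted protein that promotes synapse maturation (chrX:143285674-143394262, minus strand), had 2618 and 2277 in CX and 5.26, 4.01 and 6.31 in BS (log2 fold change -8.64 ± 0.40, adjusted p = 9.2e-06), the smallest adjusted p of all tested genes. Hapln1, a link protein of perineuronal nets, had 1681 and 1418 and 41.0, 30.1 and 10.5 (log2 fold change -5.97 ± 0.49, adjusted p = 0.000174). The proteoglycan Cspg5 (log2 fold change -3.80 ± 0.37, adjusted p = 0.000422), the proteoglycan Ncan (log2 fold change -2.20 ± 0.42, adjusted p = 0.0117) and the glypican Gpc6 (log2 fold change -2.36 ± 0.29, adjusted p = 0.00136) were lower in BS. Mfge8, which bridges dying cells to phagocytes, had 3336 and 2672 in CX and 188, 292 and 286 in BS (log2 fold change -3.57 ± 0.26, adjusted p = 8.45e-05), and the phagocytic receptors Mertk and Megf10 were lower by -2.91 ± 0.26 and -1.28 ± 0.30. Dab1, the adaptor of reelin receptors, was lower in BS by -3.75 ± 0.25.

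Thrombospondins split within this list. Thbs2, which promotes synapse formation, had 2.51 and 15.3 in CX and 249.2, 351 and 208 in BS (log2 fold change 5.12 ± 0.61, adjusted p = 0.00114), while Thbs4 had 41.5 and 99.7 in CX and 4.21, 0 and 2.10 in BS (log2 fold change -4.69 ± 1.07, adjusted p = 0.0251). Sparc, a matricellular protein, was higher in BS (4636 and 5691 against 12189, 44108 and 25787, log2 fold change 2.23 ± 0.49, adjusted p = 0.0217), and its relative Sparcl1 was not called (-0.57 ± 0.64). For Sparc the 3 BS values had the astrocyte order.

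Axon guidance genes gave 5 (7, 5, 4, 4 and 6) higher in BS and 6 (5, 12, 6, 3 and 3) higher in CX of 49 tested. Slit2, a midline repellent, had 52.8 and 18.4 in CX and 1121, 435 and 579 in BS (log2 fold change 4.35 ± 0.48, adjusted p = 0.000762). Ntn1, netrin 1, had 3.77 and 29.1 and 111, 258 and 149 (log2 fold change 3.77 ± 0.72, adjusted p = 0.0111), whereas its receptor Dcc was higher in CX (269 and 178 against 13.7, 24.0 and 54.7, log2 fold change -3.01 ± 0.57, adjusted p = 0.0104). Ephb1 and Epha5, receptors of ephrins, were higher in CX by log2 fold changes of -3.005 and -2.41. Slit2 and Sema3b (211, 58.1 and 90.5 in BS) were highest in BS_1, Ntn1 highest in BS_2.

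Among 43 tested genes of Wnt, BMP, hedgehog and fibroblast growth factor signalling, 3 (5, 3, 2, 1 and 3) were higher in BS and 6 (7, 12, 7, 3 and 5) higher in CX. Dkk3, a secreted member of the Dickkopf family (chr7:112116017-112159057, minus strand), had 4166 and 4138 in CX and 104, 108 and 54.7 in BS (log2 fold change -5.59 ± 0.31, adjusted p = 2.8e-05). Lgr4, a receptor of R-spondins, and Gli3, a hedgehog effector, were lower in BS by -2.13 ± 0.22 and -1.81 ± 0.27. Fzd2, a Wnt receptor, was lower as well (log2 fold change -2.28 ± 0.50, adjusted p = 0.0217). Boc, a hedgehog coreceptor, and Sfrp5, a Wnt inhibitor, were higher in BS, with log2 fold changes of 1.75 ± 0.29 and 2.71 ± 0.57. Ptch1 and Gli1, which hedgehog signalling induces, were not called, at 0.65 ± 0.34 and 0.64 ± 0.77. The 3 of 43 genes higher in BS are near the 6.34% of all tested genes called in that direction.

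Of 18 tested genes of thyroid hormone and retinoid handling, the 2 (3, 3, 2, 2 and 2) called higher in CX handle thyroid hormone and the 3 (4, 5, 3, 2 and 2) called higher in BS handle retinoids. DESeq2 called 5 higher in BS. Dio2, the deiodinase that makes active thyroid hormone in astrocytes (chr12:90724552-90738438, minus strand), had 9898 and 8632 in CX and 844, 1631 and 972 in BS (log2 fold change -3.07 ± 0.30, adjusted p = 0.000422). Crym, which binds thyroid hormone in the cytosol, had 96.7 and 150.3 in CX and no read in BS, at least 23.9-fold higher in CX (adjusted p = 0.0041). Cyp26b1, which breaks down retinoic acid (chr6:84571414-84593908, minus strand), had 3.77 and 9.20 in CX and 437, 1316 and 783 in BS (log2 fold change 6.78 ± 0.49, adjusted p = 8.73e-05). Aldh1a1, a retinaldehyde dehydrogenase, had 704 and 906 and 3346, 7609 and 3155 (log2 fold change 2.43 ± 0.36, adjusted p = 0.00339). Both were highest in BS_2, while Stra6, a retinol transporter, was highest in BS_1 and lowest in BS_2 (229, 46.1 and 107). The hormone receptors Thra and Thrb were not called (-0.15 ± 0.26 and -0.44 ± 0.25).

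The count of sterol genes depended on single libraries of both regions. Of 33 tested genes of cholesterol synthesis and lipid export, 4 (4, 19, 2, 0 and 0) were called higher in CX, with a median log2 fold change of -0.59, and 1 was called without the trend. By limma, edgeR and DESeq2, 0 were called higher in BS, and 1 had p under 0.05 in that direction, while 1 was called higher in BS without BS_2. Msmo1 (log2 fold change -1.26 ± 0.27, adjusted p = 0.0177) was the called member of the pathway itself whose adjusted p passed. Apoe, the main lipid carrier of astrocytes, was not called, at 24897 and 22901 in CX and 7785, 16624 and 11517 in BS (log2 fold change -1.06 ± 0.40, adjusted p = 0.141). Of 28 tested genes of glycolysis, lactate and glycogen, 3 (3, 5, 1, 1 and 1) were higher in CX and 1 (3, 1, 1, 1 and 0) in BS. The glycogen phosphorylases went in opposite directions: Pygm was higher in BS (log2 fold change 1.36 ± 0.30, adjusted p = 0.0217), and Pygb higher in CX by the unadjusted p alone (log2 fold change -0.99 ± 0.29, adjusted p = 0.065). Ppp1r3g, a glycogen-targeting phosphatase subunit, was higher in CX (log2 fold change -3.004 ± 0.50, adjusted p = 0.00607). Gapdh, Ldha and Ldhb differed by -0.16, -0.02 and -0.05.

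Agt, angiotensinogen, which astrocytes of the hindbrain are known to secrete, had 266 and 288 in CX and 701, 2342 and 1856 in BS (log2 fold change 2.38 ± 0.42, adjusted p = 0.00787), with the astrocyte order. It stood in the list of reactive astrocyte genes, of which 5 of 28 (2, 3, 4, 1 and 4) were higher in BS, or 3 by edgeR, and 1 (1, 1, 1, 1 and 1) higher in CX. Fbln5, a matrix protein, was higher in BS (log2 fold change 2.26 ± 0.48, adjusted p = 0.0176), and C3, a complement factor, had no read in CX and 59.9, 50.1 and 4.21 in BS (adjusted p = 0.0608). The reactive marker Vim was not called (-0.28 ± 0.38), nor was Serpina3n (1.07 ± 0.45).

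Immediate early genes, which dissociation is known to induce, were uneven across the BS libraries. Their summed value was 2390 and 3146 in CX, 8379 in BS_1, 1669 in BS_2 and 5039 in BS_3. Egr1 had 352 and 445 in CX and 2550.5, 220.4 and 1039.7 in BS and was not called (adjusted p = 0.457). Of 25 tested, 1 (1, 1, 1, 0 and 1) was called higher in CX (Arc, log2 fold change -2.32 ± 0.49, adjusted p = 0.017). In the other direction 0 were called by limma or edgeR, 1 by DESeq2 and 1 at an unadjusted limma p under 0.05, and without BS_2 limma called 8 higher in BS.

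Markers of choroid plexus, the epithelium that makes cerebrospinal fluid, were higher in BS for 18 of 19 tested (15, 19, 17, 17 and 15), with a median log2 fold change of 4.61. Ttr, transthyretin, had 4204 and 1323 in CX and 221910, 46376 and 108260 in BS (log2 fold change 5.46 ± 0.69, adjusted p = 0.00141), which was 0.0200% to 0.0598% of reads in CX and 0.747% to 3.80% in BS. Folr1, Kl, Clic6, Kcnj13 and Slc4a5 had log2 fold changes of 5.07, 4.37, 3.90, 4.22 and 5.21, and for each the BS order was BS_1, BS_3, BS_2. Ciliary markers of ependyma were higher in BS for 10 (7, 12, 5, 4 and 6) of 13 tested of 18 listed, with sums of 111 and 201 in CX and of 1956, 479 and 1307 in BS. Foxj1, the master factor of motile cilia, had 7.54 and 33.7 in CX and 319.6, 84.1 and 259 in BS (log2 fold change 3.48 ± 0.69, adjusted p = 0.0131). Meningeal fibroblast markers were higher in 6 of 14 (4, 8, 5, 2 and 4), among them Igf2 (6096, 1170 and 2684 in BS, 381 and 354 in CX) and Col1a2 (log2 fold change 2.51 ± 0.40, adjusted p = 0.00486). The genes named from these 3 groups shared an order among the BS libraries. Those of choroid plexus are members of the sum that defines this order, so sharing it is no separate result. Not every called member of the 3 groups had it. Steap1 of the choroid plexus list, Ak7 and Tekt1 of the ependymal list and Dcn and Col3a1 of the meningeal list had neither marker order. No fit here removed the part of these groups.

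Oligodendrocyte markers were higher in BS for 7 of 18 tested (11, 10, 5, 4 and 9), and followed a different order. Mbp, myelin basic protein, had 15028 and 12396 in CX and 37477, 45114 and 65569 in BS (log2 fold change 1.82 ± 0.46, adjusted p = 0.0371), and Mobp and Ermn had log2 fold changes of 1.83 and 1.91. Without Enpp2, which choroid plexus also expresses, the markers summed to 22146 and 21410.2 in CX and to 55639, 67700 and 94964 in BS_1, BS_2 and BS_3. Of 17 microglia markers 0 were called in either direction by limma, edgeR or DESeq2, and 2 had an unadjusted limma p under 0.05, both towards CX, with sums of 3592 and 4382 in CX and 2749 to 5016 in BS. Endothelial and mural markers gave 1 of 18 called higher in BS (2, 2, 0, 0 and 10), 0 by edgeR and 1 by DESeq2, and 1 called higher in CX (1, 1, 1, 0 and 0). Their median log2 fold change was 0.96, 8 of them had an unadjusted p under 0.05 towards BS, and the count of 10 came without CX_2.

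The remaining lists were small or mixed. Neuropeptide and secreted hormone genes gave 2 (3, 3, 2, 2 and 1) higher in BS and 3 (3, 4, 3, 0 and 0) higher in CX of 17 tested. Markers of regional neurons gave 3 (1, 1, 1, 3 and 2) and 2 (2, 3, 2, 1 and 1) of 12, oligodendrocyte precursor markers 1 (3, 2, 1, 0 and 1) and 1 (1, 1, 1, 0 and 1) of 11, and neural stem cell markers 1 (2, 1, 0, 1 and 1) and 2 (2, 3, 1, 0 and 0) of 12. Cpe, carboxypeptidase E, was among the CX-higher hormone genes (38503 and 37177 against 4061, 12483 and 6325, log2 fold change -2.47 ± 0.46, adjusted p = 0.00979). Bergmann glia and cerebellar markers gave 4 (5, 3, 2, 3 and 3) higher in BS of 10, among them A2m, α2-macroglobulin, at 40.2 and 52.1 in CX and 2244, 725 and 781 in BS (log2 fold change 4.53 ± 0.44, adjusted p = 0.000422).

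Neuron markers gave 5 (5, 6, 3, 3 and 5) higher in BS and 5 (4, 8, 4, 3 and 3) higher in CX of 22 tested. Camk2a, a kinase of forebrain excitatory neurons whose messenger RNA is also carried in fine processes, had 4584 and 5567 in CX and 55.7, 14.02 and 109 in BS (log2 fold change -6.80 ± 0.64, adjusted p = 0.000369). The vesicular glutamate transporters split by region, with Slc17a7 at 143 and 218 in CX and 21.0, 14.02 and 10.5 in BS (adjusted p = 0.0033) and Slc17a6 at 2.51 and 4.60 and 53.6, 56.1 and 65.2 (adjusted p = 0.00722). Neurofilament genes were higher in BS, led by Nefh (21.4 and 12.3 against 339.6, 202 and 210.5, log2 fold change 3.83 ± 0.41, adjusted p = 0.000626). Snap25 and Map2 were not called (0.47 ± 0.25 and -0.73 ± 0.27). The summed neuron markers were 11999 and 14509 in CX and 7047 to 7893 in BS. Gabra6 and Cbln3, genes of cerebellar granule cells, had no read in CX and 10.5, 18.0 and 61.0 and 4.21, 16.0 and 194 in BS, where Cbln3 was not called (adjusted p = 0.0924) and came mostly from BS_3.

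**Figure D4:**
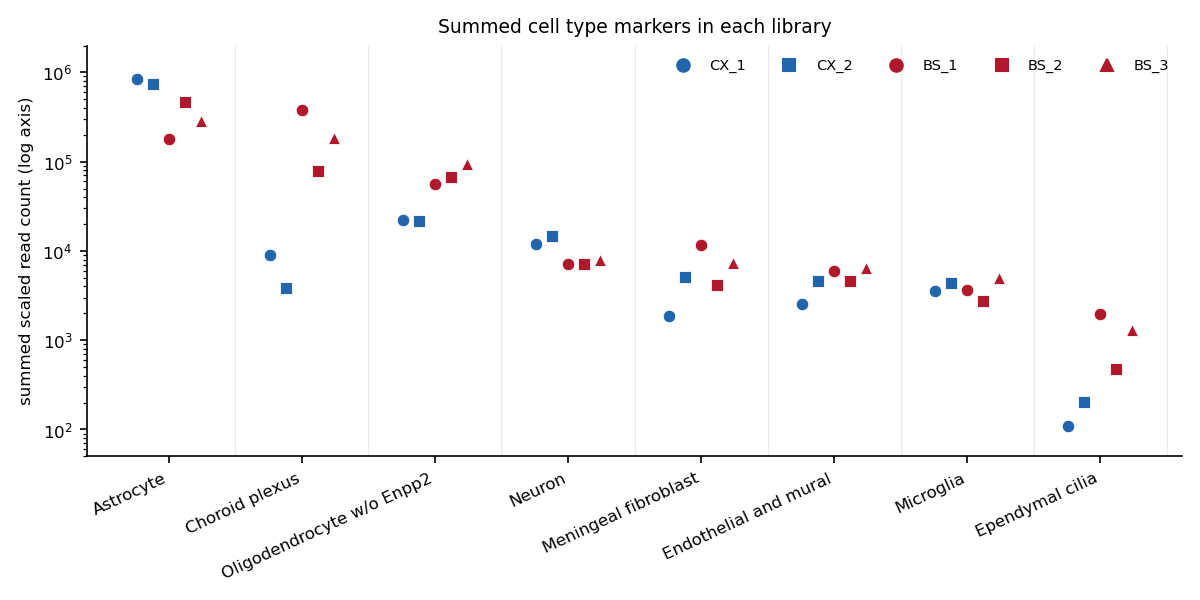
Points are the summed scaled read counts of each marker list in single libraries, on a log axis, blue for CX and red for BS. Choroid plexus sums were 3848 and 9033 in CX and 78912 to 375728 in BS, while the microglia sums of both regions overlapped.

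Other genes with the largest fold changes belonged to none of these lists, apart from Cldn2, a choroid plexus marker. Nr2e1, the orphan receptor Tlx of forebrain stem cells and retina, had 1060.4 and 886 in CX and 5.26, 0 and 6.31 in BS (adjusted p = 0.00056). Ddn, dendrin, a protein of dendrites whose messenger RNA is dendritic, had 196 and 228 and 0, 0 and 0 (adjusted p = 0.00136). Lrrc10b had 55.3 and 81.3 in CX and 0, 0 and 0 in BS, and the unnamed transcript C030018K13Rik 126 and 135 in CX and no read in BS. On the BS side, Lpo, lactoperoxidase, had 1.26 and 7.67 in CX and 163, 309 and 164 in BS, and Trp73, a relative of the tumour suppressor Trp53 that ciliated cells express, no read and 89.4, 26.0 and 77.9. The adhesion protein gene Emb, the claudins Cldn1 and Cldn2 and the protease inhibitor Serpinb1b had BS values of 1079, 335 and 514, of 411, 54.1 and 141, of 949, 246 and 309 and of 233, 94.2 and 166. The unnamed transcript 4931429I11Rik had 107, 42.1 and 63.1 in BS and no read in CX.

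A list drawn up as markers of telencephalic or of other astrocytes gave 10 of 19 tested higher in BS and 6 higher in CX. Leaving out BS_1, BS_2 and BS_3 in turn gave 9, 11 and 7 higher in BS and 6, 6 and 6 higher in CX. Fewer were called higher in BS without CX_1 or without CX_2, fits that leave 1 CX library, and the CX-higher count did not change. Its members Slc6a9 and Gria1 were also high in the olfactory bulb, as given below, so they did not set BS apart from every other region sampled. The list was assembled with results of these data known, and shares members with the lists above. Of the members not yet named, Fam163a was higher in CX (1079 and 760.5 against 52.6, 204 and 105, log2 fold change -3.11 ± 0.47, adjusted p = 0.00371) and Itih3, an inter-α-trypsin inhibitor chain, higher in BS (677 and 622 against 1016, 3131 and 1955, log2 fold change 1.501 ± 0.39, adjusted p = 0.0411). Igfbp2 and Unc13c were not called (0.88 ± 0.31 and 0.04 ± 0.29). Over the 17 fits tried here, 403 genes were called in the same direction by all of them, 243 higher in BS and 160 higher in CX, and among those were Lhx2, Emx2, Fezf2, Otx1, Hoxa2, Irx2, Pax3, Dao, Slc6a9, Gldc, Slc1a3, Grm3, Gria1, Gria4, Cyp26b1, Dio2, Chrdl1, Dkk3 and Ttr.

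Many of the called genes described above shared the order of a marker sum among the BS libraries. Some are members of the sum and so helped to set its order. In the astrocyte sum these are Slc1a3, Clu, Glul and Sox9. In the choroid plexus sum they are Cldn2, Ttr, Otx2, Aqp1, Enpp2, Slc4a5, Folr1, Kl, Clic6 and Kcnj13. The astrocyte order was held by the CX-higher Otx1, Pax6, Dbx2, Sox21, Id4, Pou3f3, Slc1a3, Clu, Glul, Sox9, Slc7a11, Gldc, Grm3, Dtna, Cspg5, Dio2, Msmo1, Pygb, Cpe, Rorb, Sox2, Psat1, Psph, Gria2, S1pr1, Kcnn3, Epha5, Gpc6, Megf10, Mertk, Mfge8, Ncan, Dab1 and Fam163a and by the BS-higher Cyp26b1, Lpo, En2, Slc6a9, Gria4, Gria1, P2ry1, Kcnd2, Ntn1, Pygm, Agt, Adra2a, Sparc, Boc and Itih3. The choroid plexus order was held by the BS-higher 4931429I11Rik, Trp73, Serpinb1b, Emb, Cldn2, Cldn1, Ttr, Otx2, Hoxb3, Zic1, Slc38a2, Htr2c, Aqp1, Sema3b, Slit2, Stra6, Igf2, Nefh, Enpp2, Col1a2, Slc4a5, A2m, Got2, Slc12a2, Folr1, Kl, Clic6, Kcnj13 and Foxj1 and by the CX-higher Ephb1, Thbs4 and Arc.

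**Figure D5:**
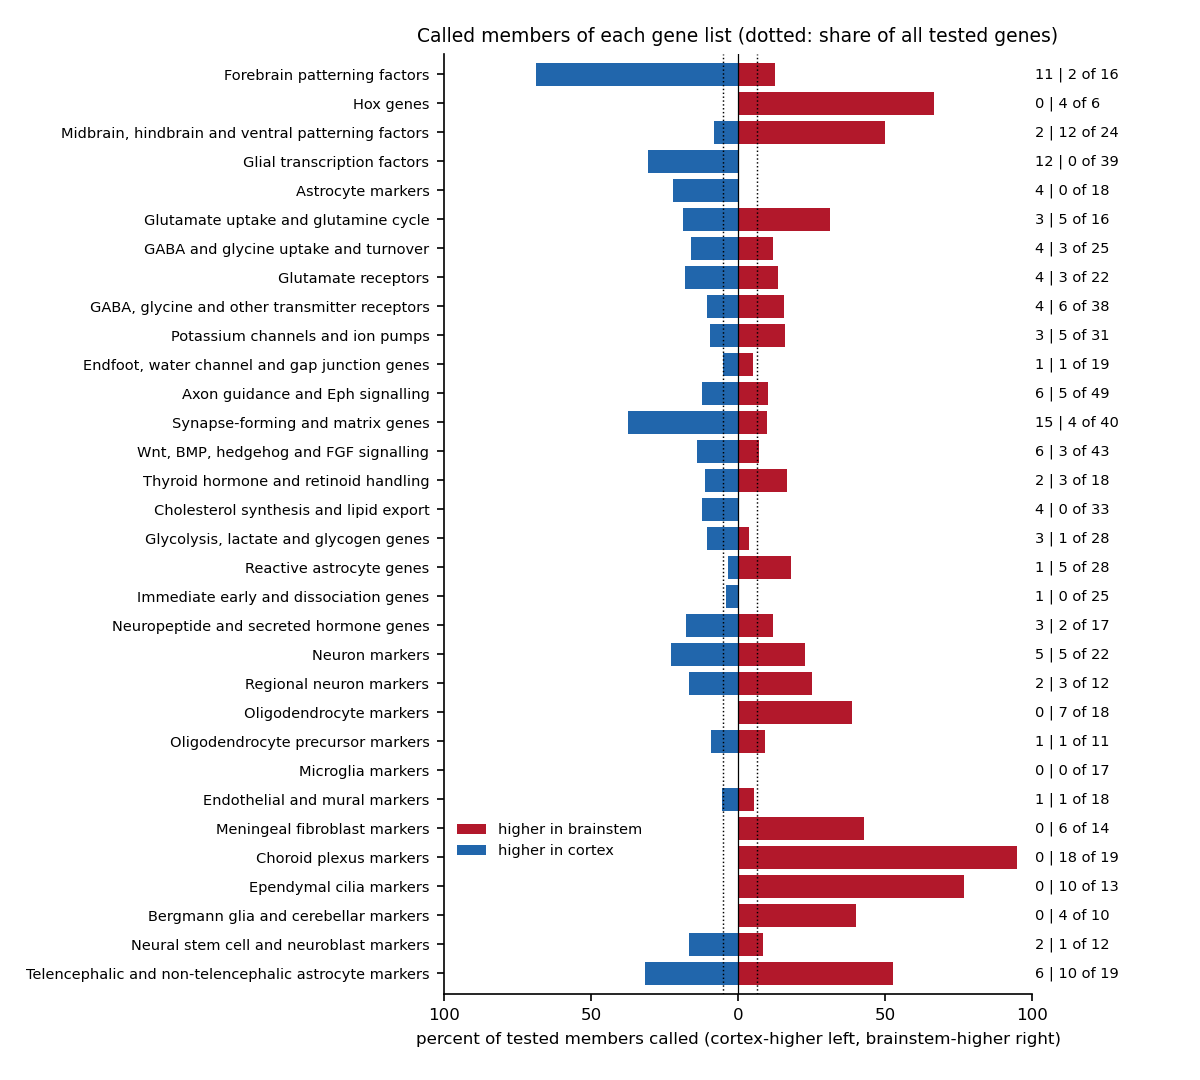
Bars give the percent of tested members of each gene list called higher in cortex (blue, to the left) and in brainstem (red, to the right), with the counts at the right edge as cortex-higher, brainstem-higher and tested; dotted lines mark the 4.99% and 6.34% of all tested genes. Forebrain patterning factors stand out to the left (11 of 16), and choroid plexus and ependymal markers to the right (18 of 19 and 10 of 13).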

How the data were processed

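RNA of reporter-positive sorted cells was read as paired-end libraries made with the Trio RNA-Seq System. The authors aligned reads to mm10 (STAR 2.5.0a), counted them per gene and normalized with DESeq2 1.20.0. The deposited signal is thus a read count per gene, divided by a size factor that is the same for all genes of a library, and whether counting used strand is not given in the sources used here. Dividing by the value of 1 read gave whole reads for 100% of values within 0.001. The planned test assumed counts, and because the deposited unit is a scaled signal, limma was used as the stated fallback.

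Values of the 5 libraries were tested as log2(value + 1) with limma 3.58.1 (R 4.3.3), with a mean-variance trend, after filterByExpr of edgeR 4.0.16 on the recovered reads. Calls required an unadjusted p under 0.01, a fold above 1.5, and 2 or more libraries of one region with values above 5. Adjusted p are Benjamini-Hochberg over 12390 genes. With 2 against 3 libraries an exact permutation test cannot go below p = 0.1, so none was run. Depth was 2830746 to 5596128 reads, and a count of 0 allows 3 reads per library, 4.18 units on average in CX and 5.16 in BS. Floors and intervals cover counting error only. Entries with date-like names from a spreadsheet (27) were not matched to genes.

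Named genes were the 12 largest called fold changes per direction (adjusted p under 0.05, no overlap), the 8 largest with a mean over 200, up to 5 called and 3 uncalled members of each list, and genes the study discusses. Members, lists and tests were chosen with earlier results of these data known. Of the genes the study discusses, Stat4 had 1 read in CX and BS together. Some genes that the rule names are not reported here. Coordinates are GENCODE gene bounds on GRCm38, and promoters were RefSeq, matched by symbol for 9444 genes. On simulated counts of 12390 genes with 200 changed, the limma call found 39 of 100 changes of 2-fold and 96 of 100 of 4-fold, and 115 unchanged genes were called. The simulation gave every gene the same dispersion and left the lowest genes out of those changed. It held no difference in cell content among libraries of a region, so these rates do not carry over to the data. Alternatives were edgeR and DESeq2 1.42.0 on the recovered reads, other scaling, pseudocounts, filters, a replicate block, all 11 samples and each library left out.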

Additional observations from a re-analysis of the deposited data

How the results depend on the processing

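Of the 1404 called genes, 0 had the opposite sign in any of the other fits. The number of called genes, 1404 in the reported fit, was 1414 with edgeR and TMM factors, 1413 with RLE factors, 1646 with DESeq2, 1360 and 1438 with pseudocounts of 0.25 and 5, 1537 without the filter, 1064 without the trend and 1802 with all 11 samples. The count with adjusted p under 0.05, 1009 in the reported fit, was 1527 with all 11 samples, 1569 with the replicate block and all 11 samples, and 314 without the trend. Leaving out 1 library in turn gave 607 to 2185 called genes, 415 to 1091 higher in BS, 192 to 1094 higher in CX and 29 to 2067 with adjusted p under 0.05. The highest of these came without BS_2 and the lowest without CX_1, and fits with 1 CX library assume that it varies like the BS libraries. CX and BS share replicate numbers, but nothing in the labels says whether a number marks a shared animal. Deviations of same-numbered libraries correlated at -0.0017 and -0.06. With 2 CX libraries the deviations of CX_1 and CX_2 mirror each other, so these correlations cannot decide whether libraries were paired. The replicate block gave 1189 called genes (684 higher in BS, 505 higher in CX), and 827 with adjusted p under 0.05. It called 1 Hox gene against 4 in the reported fit. Towards CX it called 1 sterol gene and 1 astrocyte marker, against 4 each. Since pairing is unknown, which of these fits suits the design cannot be told, and these lower counts remain a limit on those lists. TMM rescaling moved the median of all genes by -0.01. Depth limits the low genes most: 37 BS-higher and 15 CX-higher genes rest on the floor of 3 reads in the other region.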

Other observations

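The olfactory bulb (OB, 3 libraries) and hippocampus (HC, 3 libraries), which took no part in the comparison, divided the genes that separated cortex from brainstem. Rn45s took 0.97% to 2.9% of reads in the OB and HC libraries, against 18.0% to 25.6% in CX and BS. The part of this difference in the values below was not tested. Lhx2, high in CX, had values of 1059.8, 1253 and 1426 in OB and of 1260.5, 1528 and 1787 in HC. Hoxa2 and Pax3 had no read in any OB or HC library, and Dao had 3.26, 7.11 and 1.62 in OB and no read in HC. Gldc and Grm3 were at 1084, 1104 and 1313 and at 1225, 1566 and 1821 in OB and at 680.2, 974.6 and 1089 and at 1933, 3017 and 3019.6 in HC, well above their BS values.

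Several BS-higher transmitter genes were also high in OB. Slc6a9 had values of 1888, 1509 and 2002 in OB and 111, 164 and 172 in HC, and Gria1 had 4010.3, 3964 and 3943 in OB and 364, 438 and 314 in HC. Gria4 and Thbs2 had 759, 622 and 629 and 372, 328 and 399 in OB and 74.96, 133 and 92.5 and 30.0, 29.2 and 20.2 in HC. Agt did not share this pattern, at 293, 178 and 274 in OB and 373, 311 and 419 in HC. Chrdl1, high in CX, was at 2879, 2719 and 3111 in OB and at 262, 406 and 346 in HC. These values were not tested, and the genes were chosen after their values were seen.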
